A study of Mus musculus with 32 samples.

Results

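The 9 chemokine genes named as microglial chemokines, Ccl2, Ccl3, Ccl4, Ccl5, Ccl6, Ccl9, Ccl12, Cxcl13 and Cxcl16, were followed by name in single-cell RNA counts from the cortex and hippocampus of 16 female mice. They were 9 of the 55341 genes counted, and 8 of them had at least 1 UMI (unique molecular identifier, each counting 1 RNA molecule). All mice were 15 months old and had received either PMX205, an oral antagonist of the complement receptor C5aR1, or plain water (vehicle) in the drinking bottle for 12 weeks. The vehicle groups held 5 WT mice (WT-vehicle) and 4 transgenic mice (Tg2576-vehicle), the treated groups 3 WT mice (WT-PMX205) and 4 transgenic mice (Tg2576-PMX205), with 1 library per region and mouse. Tg2576 mice are hemizygous for human APP with the Swedish mutation under the hamster prion promoter, on a mixed B6/SJL background, and WT mice are littermates without the transgene. Brain cells were enriched with CD11b beads for microglia and ACSA-2 beads for astrocytes in the presence of transcription and translation inhibitors, so the proportions of cell types were set by the beads.

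The labels held contradictions that touch every comparison. The strain labels name the Arctic model rather than Tg2576, and in 2 mice, WT-vehicle 4 and Tg2576-vehicle 3, the strain label contradicted the genotype label. The strain labels also named a C5ar1 knockout in 5 mice of all 4 groups, C5a overexpression under the GFAP promoter in 5 mice of the groups other than WT-PMX205, and neither in 6. C5ar1 UMIs were present in the microglia of 4 of the 5 mice whose strain label named the knockout. Groups here follow the genotype and treatment labels. In 4 mice, WT-vehicle 5, Tg2576-vehicle 4, Tg2576-PMX205 2 and Tg2576-PMX205 3, 24.1 to 63.2% of barcodes had a partner that differed only at the first base, against at most 2.42% in the other mice, and some cells of these mice may be counted under more than 1 barcode. A total of 289 barcode sequences occurred in more than 1 library, and 245 of the microglia carried such a sequence.

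Chemokines are small secreted proteins that attract leukocytes by binding G protein-coupled receptors, and their groups are named for the spacing of the first cysteines. CC chemokines carry these cysteines side by side, whereas a single residue separates them in CXC chemokines. Microglia, the resident macrophages of the brain, can make both kinds, and around amyloid plaques they take on a disease-associated (DAM) state marked by genes such as Cst7, Itgax and Clec7a. Ccl3 and Ccl4 are closely related inflammatory chemokines, Ccl5 also attracts T cells, Ccl6 and Ccl9 are rodent ligands of Ccr1, Ccl2 and Ccl12 bind Ccr2, Cxcl13 binds Cxcr5 on B cells, and the membrane-bound Cxcl16 binds Cxcr6. The stretch of coding sequence with the defining cysteine codons in capitals shows this family difference, read from the mm10 genome in the sense of each gene (30 bases, 5′ to 3′):
Ccl2: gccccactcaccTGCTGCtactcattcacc
Ccl4: cctcccacttccTGCTGTttctcttacacc
Ccl5: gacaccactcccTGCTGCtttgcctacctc
Ccl6: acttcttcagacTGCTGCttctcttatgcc
Ccl9: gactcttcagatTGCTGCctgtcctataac
Ccl12: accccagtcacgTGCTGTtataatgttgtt
Cxcl13: aacttaaaaTGTaggTGTtctggagtgatt
Cxcl16: gctggaagtTGTtctTGTgatcgtaccatt
The capitals are adjacent in the 6 CC members shown and one codon apart in Cxcl13 and Cxcl16. The windows shown lie in exon 2 of 6 members and in exon 3 of Ccl6 and Ccl9. Ccl3 (ENSMUSG00000000982, chr11:83647844-83649355, minus strand) and Ccl4 (ENSMUSG00000018930, chr11:83662584-83664683, plus strand) are neighbors on chromosome 11 in the mm10 annotation. Ccl5 (chr11:83525778-83530518), Ccl9 (ENSMUSG00000019122, chr11:83572919-83578636) and Ccl6 (chr11:83587882-83593087) are close to them on the minus strand. Ccl2 (chr11:82035571-82037453) and Ccl12 (chr11:82101845-82103400) lie on the plus strand of the same chromosome, Cxcl16 (ENSMUSG00000018920, chr11:70453983-70459984) lies farther off, and Cxcl13 (chr5:95956951-95961068) is on chromosome 5.

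The annotation also limits what the counts can say of individual members. Ccl2 had 0 UMIs in every library, and its whole gene lies inside Gm17268 of the other strand with exons apart. Of 589 protein-coding genes placed in that way 435 (73.9%) had 0 UMIs, against 20.4% of 21305 other protein-coding genes, so a count of 0 for Ccl2 does not show that the gene was silent. Ccl6 is placed in the same way inside E230016K23Rik but was counted. Exons of Cxcl16 overlap those of Zmynd15 on the other strand, and the counting is not stated to use strand.

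Cells were kept at 500 or more UMIs, 300 or more genes and at most 5% mitochondrial UMIs, which left 5625 of 13917 barcodes after putative doublets were taken out. Marker genes, none of them a member, assigned 2533 cells to microglia, 1270 to astrocytes, 232 to mural cells, 157 to endothelium and 23 to perivascular macrophages, and 1381 stayed unnamed. Microglia had a median of 898 UMIs, and the totals of the libraries ran from 37205 to 1072049. Of the markers that chose the microglia, Ctss was found in 97.4% of them and Tmem119 in 66.8%, whereas P2ry12 was nearly absent from the counts (13 UMIs). At least 20 microglia were found in 15 mice. WT-PMX205 3 had 12 and entered no test, leaving 2 mice in the WT-PMX205 group.

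Most members had the bulk of their UMIs in microglia, and Ccl5 did not. Microglia held 72.1 to 80% of the UMIs of Ccl3, Ccl4, Ccl6, Ccl9, Ccl12 and Cxcl16 in kept cells and 88.6% of those of Cxcl13, but 15.3% of those of Ccl5. They were also 2533 of the 5625 kept cells, so these shares depend on the beads. In levels within a cell type, Ccl9, which attracts myeloid cells, averaged 145 ± 86.5 CPM (UMIs of the gene per 1000000 UMIs of the same cells) in microglia and 15.6 ± 13.6 CPM in astrocytes of the same animals (SD, n = 12 mice with at least 20 of each), and it was higher in microglia in 12 of 12 mice. Cxcl16 averaged 94.7 ± 45.0 against 12.4 ± 11.2 CPM and was also higher in 12 of 12. Ccl3 averaged 92.8 ± 90.7 against 4.33 ± 6.88 CPM, higher in 10 mice and lower in none, the other mice having none in either. An exact two-sided sign-flip test over the mice gave p = 0.000488 for Ccl9 and Cxcl16, the smallest it can give, and p = 0.00195 for Ccl3. For Ccl12 (40.99 against 6.94 CPM) the exact test gave p = 0.000977, for Ccl4 (41.8 against 3.43 CPM) p = 0.00781 and for Ccl6 (14.9 against 0.386 CPM) p = 0.0156. Thus 6 of the 8 detected members passed, all higher in microglia, and Ccl5 (exact test, p = 0.18) and Cxcl13 (exact test, p = 0.125) did not pass. These p-values are not adjusted. By the same test 27.5% of the 19921 genes with a UMI in these cells passed and 13.7% were higher in microglia, and of the 9164 genes with at least 50 UMIs 50.7% passed and 26% were higher.

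In an edgeR fit of the same sums over all 9164 genes with at least 50 UMIs, with the mouse as a block, 5 members could be tested and all 5 were higher in microglia. Over all kept astrocytes each of these had 9 to 26 UMIs, so they passed this filter through microglia. Their shared direction is therefore no added support. Among all genes tested, 46.6% were called in either direction and 23.7% were higher in microglia, so a call in this comparison is common. The log2 difference was 4.01 ± 0.52 (SE) for Ccl3, 3.22 ± 0.66 for Ccl4, 2.94 ± 0.36 for Ccl9, 2.87 ± 0.41 for Cxcl16 and 2.56 ± 0.58 for Ccl12, with adjusted p from 3.97e-15 to 3.89e-05. The filter of 50 UMIs was chosen after a first fit with edgeR's filterByExpr by cell class had left 2593 genes (68.5% called) and none of the members. With filterByExpr by design, Ccl3, Ccl4, Ccl9 and Cxcl16 were tested and all 4 were higher in microglia (58.1% of 6158 genes called). They too passed the filter through their microglial counts. Free RNA in the suspension also gives UMIs to astrocytes, and its part in their low levels was not tested.

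**Figure D1:**
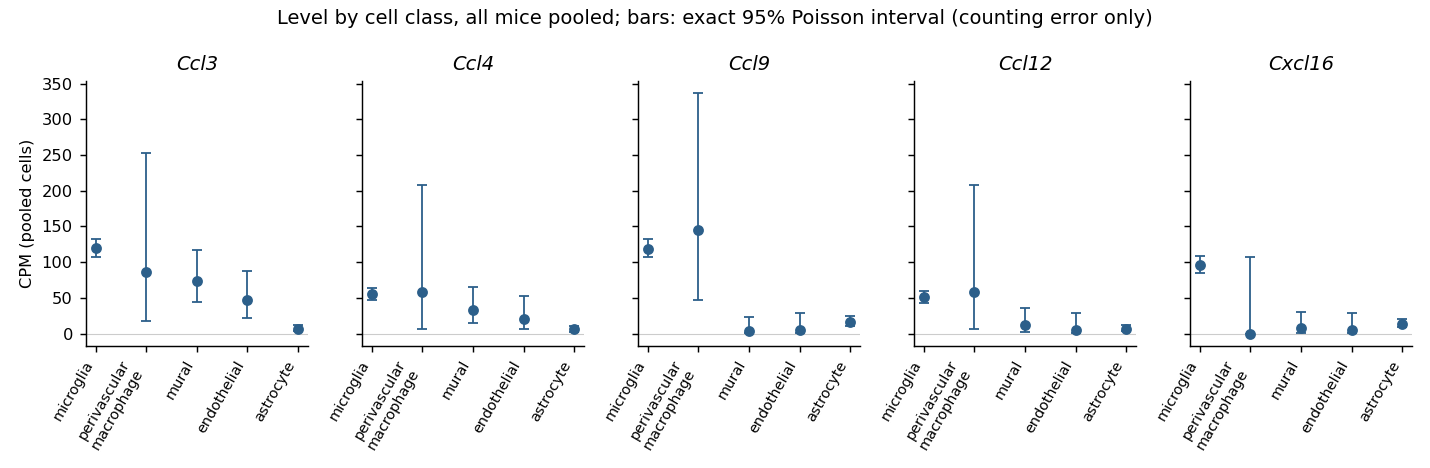
Level of 5 chemokines (CPM, all mice pooled) in the cell types chosen by marker genes, with 95% Poisson intervals that cover counting error only. Ccl9 and Cxcl16 were high in microglia and low in mural and endothelial cells, while Ccl3 was also present in the latter (73.9 CPM in mural cells). In 23 perivascular macrophages Ccl9 stood at 144 CPM, from 5 UMIs.

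Ccl3 was also found in vascular cells. Pooled over mice, Ccl3 stood at 120 CPM in microglia (95% Poisson interval 107 to 133, counting error only), 73.9 CPM in mural cells (43.8 to 117), 46.5 CPM in endothelium (21.3 to 88.2) and 6.26 CPM in astrocytes (3.00 to 11.5). All 18 mural and all 9 endothelial Ccl3 UMIs came from Tg2576 mice, in 12 of 163 mural and 5 of 112 endothelial cells, against 0 of 69 mural and 0 of 45 endothelial cells of WT mice. The ratio of Ccl3 to Ccl9 UMIs in Tg2576 mice was 1.65 in microglia and 0.556 in astrocytes, but 18 in mural cells and 9 in endothelium, each with a single Ccl9 UMI below the line. These ratios rest on few counts, and no test over mice was made. Microglial markers summed to 43907 CPM in microglia, 4660 CPM in mural cells and 2986 CPM in endothelium, and the part of microglial RNA in the vascular Ccl3 was not tested. Genes of the immediate early response, which dissociation can raise, summed to 1018 CPM in microglia, 1683 CPM in mural cells and 4742 CPM in endothelium, and their part was likewise not tested.

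The question of the genotype comparison was whether microglial chemokine RNA differs in the amyloid model at this age. Ccl3 was higher in every Tg2576-vehicle mouse than in every WT-vehicle mouse. Its level in microglia, both regions summed, was 10.9, 0, 18.7, 7.63 and 47.6 CPM in WT-vehicle mice 1 to 5. In Tg2576-vehicle mice 1 to 4 it was 175, 201, 145 and 128 CPM. The lowest Tg2576-vehicle mouse stood well above the highest WT-vehicle mouse. The share of all genes whose values part these groups was not counted, for Ccl3 or for the members below. The group means were 17.0 ± 18.4 CPM (SD, n = 5) and 162 ± 32.5 CPM (n = 4). Of 9 members 5 passed the filter on low counts, and edgeR called 1 of them, Ccl3, with a log2 fold change of 3.22 ± 0.53 (95% interval 2.15 to 4.30, adjusted p = 0.00157). By comparison 0.134% of the 5227 genes tested were called. Ccl3 and Ccl4 passed the filter through Tg2576 mice, where they were high. In the fit of all genes with at least 1 UMI, Ccl3 was also called (3.26 ± 0.51, edgeR adjusted p = 6.91e-07), as were 17 of 18888 genes.

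More cells carried Ccl3 in Tg2576-vehicle mice, and pooled over mice the UMIs per carrying cell were also higher. Ccl3 was found in 1.41% of the 778 WT-vehicle microglia and in 8.45% of the 734 Tg2576-vehicle microglia, with 1.27 and 2.10 UMIs per carrying cell. The UMIs per carrying cell were not thinned or compared over mice, and the WT-vehicle value rests on 14 UMIs in 11 cells. When each cell was thinned to 500 UMIs, so that depth could not set the shares, the shares were 0.799 ± 0.768% (SD, n = 5 mice) and 4.97 ± 1.06% (n = 4). In WT astrocytes 0 of 531 cells carried Ccl3, and 10 of 739 did in Tg2576 astrocytes. Both treated groups followed their genotype, with 16.1 and 0 CPM in WT-PMX205 mice 1 and 2 and 127, 205, 206 and 21.3 CPM in Tg2576-PMX205 mice 1 to 4. Among the 8 Tg2576 mice only Tg2576-PMX205 4, which had 49 microglia, reached down into the range of WT-vehicle mice.

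Ccl4, the neighbor and close relative of Ccl3, showed the same order with fewer UMIs. It stood at 8.15, 21.4, 0, 0 and 6.80 CPM in WT-vehicle mice 1 to 5 and at 45.9, 61.9, 114 and 38.9 CPM in Tg2576-vehicle mice 1 to 4. The log2 fold change was 3.14 ± 0.73 (SE), with an edgeR adjusted p of 0.0782 that missed the threshold. The call depended on the fit: without WT-vehicle 2, without either WT-PMX205 mouse or without Tg2576-vehicle 4 it passed (adjusted p = 0.0354 to 0.0422), and with all genes of at least 1 UMI the adjusted p was 0.00919. In the other 20 of 25 alternatives it did not pass.

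**Figure D2:**
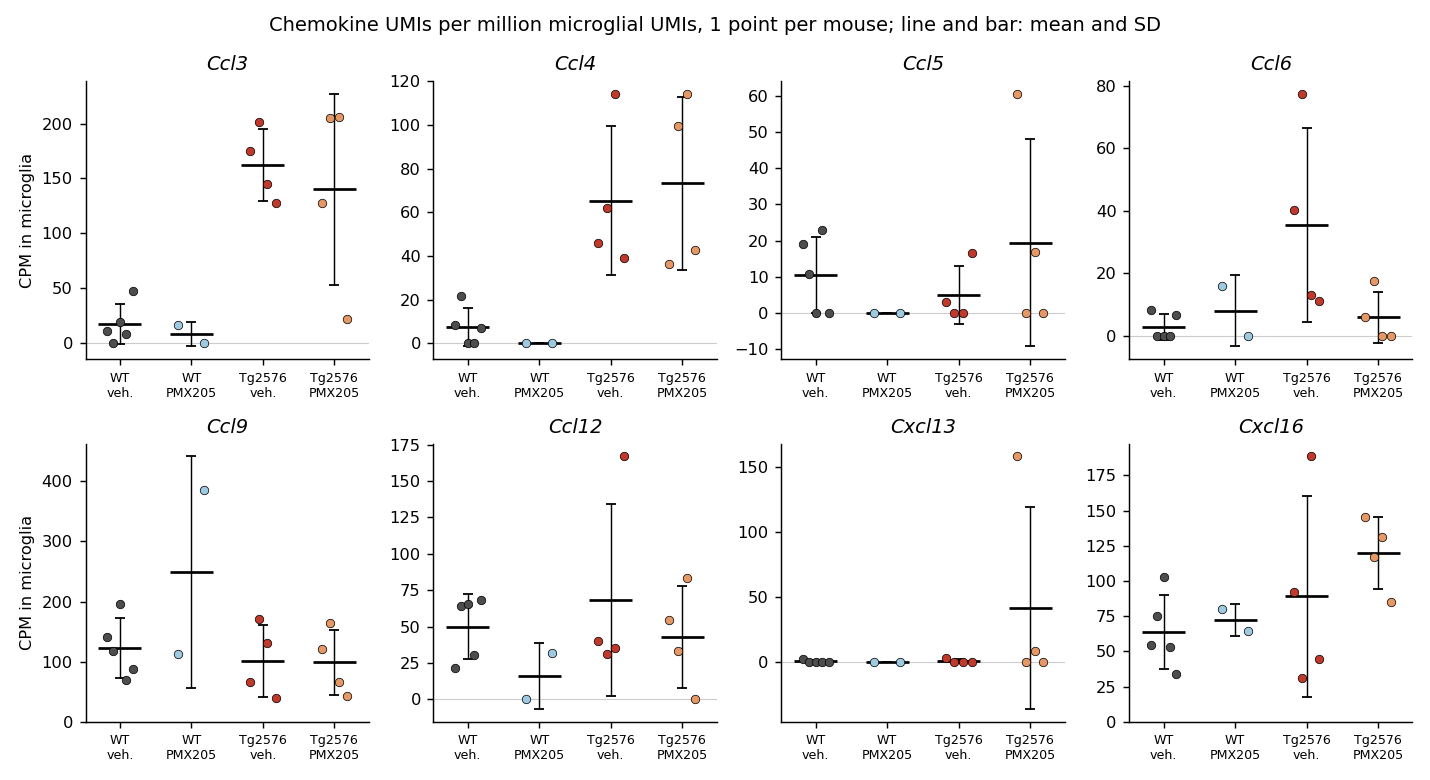
Level of each of the 8 detected chemokines in microglia (CPM, both regions summed); a point is a mouse with at least 20 microglia, a horizontal line the group mean and a bar the SD. Ccl3 lay between 0 and 47.6 CPM in the 5 WT-vehicle mice and between 128 and 201 CPM in the 4 Tg2576-vehicle mice, while Ccl9 overlapped between all groups.

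Ccl9, Ccl12 and Cxcl16 overlapped between genotypes. Ccl9 was 141, 118, 196, 68.7 and 88.5 CPM in WT-vehicle mice and 66.0, 170, 132 and 38.9 CPM in Tg2576-vehicle mice, and the groups overlapped (log2 fold change −0.34 ± 0.44, edgeR adjusted p = 0.997). Ccl12 was 21.7, 64.2, 65.4, 30.5 and 68.0 CPM in the former and 40.2, 31.0, 35.1 and 167 CPM in the latter (0.57 ± 0.60, edgeR adjusted p = 0.997), the last value being Tg2576-vehicle 4. Without that mouse the Tg2576-vehicle mean fell from 68.3 to 35.4 CPM, below the WT-vehicle mean of 49.98 CPM, so the direction of the Ccl12 difference rested on it. Cxcl16, made as a membrane protein, was 54.3, 74.9, 103, 53.4 and 34.02 CPM against 91.9, 31.0, 189 and 44.5 CPM (0.68 ± 0.44, edgeR adjusted p = 0.997). For all 3 genes the difference was smaller than the range within a group.

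The other members were too sparse to be tested. Ccl6 was low, at 0 to 8.15 CPM in WT-vehicle and 11.1 to 77.4 CPM in Tg2576-vehicle mice. These ranges rest on 4 and 24 UMIs, and the highest value, that of Tg2576-vehicle 2, came from 5 UMIs that all lay in 1 cell. With no filter on low counts Ccl6 had a log2 fold change of 2.79 ± 1.02 and an edgeR adjusted p of 0.782. Ccl5, a chemokine of T and NK cells as well as macrophages, was 0 to 22.9 CPM in WT-vehicle and 0 to 16.7 CPM in Tg2576-vehicle mice. Cxcl13 had 1 UMI in each of these groups. Ccl2 had none, and no limit is drawn from that count given the place of its gene.

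The promoter sequences of Ccl3, which rose, and of Ccl9, which did not pass, are shown side by side because both genes lie in the same cluster on the same strand, with Ccl6 between them. They were taken from RefSeq (GRCm38.p6), 250 bases before to 50 bases after the start, in the sense of the gene. Ccl3 is at chr11:83649329-83649628 and Ccl9 at chr11:83578587-83578886, both on the minus strand, and capitals mark every match to the motifs searched.
Ccl3: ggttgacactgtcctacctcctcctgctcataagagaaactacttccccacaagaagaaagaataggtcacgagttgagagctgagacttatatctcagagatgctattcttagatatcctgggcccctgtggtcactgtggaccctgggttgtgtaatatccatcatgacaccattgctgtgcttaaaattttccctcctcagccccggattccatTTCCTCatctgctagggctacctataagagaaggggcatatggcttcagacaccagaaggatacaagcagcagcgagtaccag
Ccl9: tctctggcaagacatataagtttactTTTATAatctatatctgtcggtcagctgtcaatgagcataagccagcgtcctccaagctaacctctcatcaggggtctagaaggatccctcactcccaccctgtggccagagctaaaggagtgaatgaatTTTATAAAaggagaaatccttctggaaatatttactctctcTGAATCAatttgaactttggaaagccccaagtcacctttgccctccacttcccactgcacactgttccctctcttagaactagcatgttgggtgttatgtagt
Each strand was searched for NF-kB (GGGA, any 4 bases, then CC, in 20.7% of 32851 promoters of this length), AP-1 (TGANTCA, 7.81%), C/EBP (TTGCNNAA, 10.8%), PU.1 (GAGGAA, 28.3%), ISRE (GAAA, any 2 bases, then GAAA, 3.44%) and a TATA box (TATAAA, 13.6%). In Ccl3 the only match was PU.1 on the other strand, 33 bases before the start. Ccl9 had AP-1 at 53 bases before the start and TATA letters on both strands, a pair of which overlap. Promoters of Ccl6, Ccl12 and Cxcl13 were also searched. Ccl12 held PU.1 and TATA, Cxcl13 held NF-kB, C/EBP and TATA, and Ccl6 held none of the 6. A match is a run of letters and says nothing about binding.

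Region by region, the direction of the Ccl3 difference was the same in cortex and hippocampus, and the call was made in cortex. In cortex 3 members could be tested and 1 was called, against 0.0859% of 3494 genes, with a log2 fold change of 3.37 ± 0.70 for Ccl3 (edgeR adjusted p = 0.0356), −0.62 for Ccl9 and 0.32 for Cxcl16. This call was lost in 11 of 25 alternatives, among them the one without the 2 mice with contradicting strain labels (adjusted p = 0.159, log2 fold change 3.16). In those 11 the log2 fold change was 2.87 to 4.16, against 3.37 here. Each of 8 mice took it away when left out, WT-vehicle 1 to 4, Tg2576-vehicle 1 to 3 and Tg2576-PMX205 3 (adjusted p = 0.0615 to 0.196). In hippocampus, where 3 WT-vehicle and 2 Tg2576-vehicle mice had enough microglia, 4 members were tested and 0 were called by edgeR (0.172% of 2900 genes were). At an unadjusted p under 0.05 there were 3, Ccl3 (2.57 ± 0.97), Ccl4 (2.82 ± 1.11) and Cxcl16 (1.76 ± 0.80), as did 100 of the 2900 genes, and DESeq2 called 0.

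Hippocampus and cortex were compared within the 9 mice that had at least 20 microglia in both. Ccl3 was the 1 member that could be tested, it was not called, and 0.421% of 1664 genes were. Its log2 difference was 0.33 ± 0.44 (edgeR adjusted p = 0.899), DESeq2 called 0 members and none had an unadjusted p under 0.05. Single animals were nevertheless uneven. Tg2576-PMX205 1 had 0 Ccl3 UMIs in 79 cortical microglia and 279 CPM in 44 hippocampal ones, while Tg2576-PMX205 2 stood at 209.5 and 190.4 CPM.

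The second question of the study was whether PMX205 changes microglia in Tg2576 mice. No call was made for any member with PMX205, and Ccl3 overlapped between treated and vehicle mice. Ccl3 averaged 162 ± 32.5 CPM in Tg2576-vehicle (SD, n = 4) and 140 ± 87.4 CPM in Tg2576-PMX205 (n = 4), with a log2 fold change of −0.01 ± 0.44. The lower treated mean rested on Tg2576-PMX205 4 (21.3 CPM), and the medians, 160 and 166 CPM, went the other way. The 95% interval for Ccl3 ran from −0.91 to 0.88, which does not exclude a change in either direction. Ccl4 stood at 0.28 ± 0.57, Ccl9 at 0.20 ± 0.46, Ccl12 at −0.45 ± 0.61 and Cxcl16 at 0.35 ± 0.42 (edgeR adjusted p = 0.99988 for all 5). Without Tg2576-vehicle 4 the vehicle mean of Ccl12 was 35.4 CPM, below the 42.9 CPM of Tg2576-PMX205 mice, so the direction of the Ccl12 means rested on that mouse. Of 5 members tested edgeR called 0 (background 0% of 5227 genes), none had an unadjusted p under 0.05, and DESeq2 called 0; over all genes 143 had an unadjusted p under 0.05. In cortex 0 of 3 members were called (0% of 3494 genes), and in hippocampus 0 of 4 (0.069% of 2900 genes), in each case with 0 members at an unadjusted p under 0.05 and 0 by DESeq2.

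Cxcl16 was the most even gene among treated animals, at 146, 117, 131 and 85.2 CPM in Tg2576-PMX205 mice 1 to 4, inside the range of the vehicle mice. Ccl4 was 36.4, 99.7, 114 and 42.6 CPM, Ccl9 121, 164, 66.9 and 42.6 CPM, and Ccl12 54.6, 33.2, 83.7 and 0 CPM. Each of these overlapped with Tg2576-vehicle. Ccl6 was lower in the treated mice in sum, with 10 UMIs against 24, and its ranges overlapped (0 to 17.6 CPM against 11.1 to 77.4 CPM).

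In WT mice the treated group was 2 animals. Ccl9 was 113 and 386 CPM in them against 68.7 to 196 CPM in WT-vehicle mice (log2 fold change 1.02 ± 0.55, edgeR adjusted p = 0.748), and Ccl4 was 0 in both. Of 5 members tested edgeR called 0 (0% of 5227 genes), none had an unadjusted p under 0.05, and DESeq2 called 0. The difference between both treatment effects was likewise not called for any of the 5 members (0% of 5227 genes), with 0 at an unadjusted p under 0.05 and 0 by DESeq2. For Ccl3 that difference was 1.01 ± 1.52 on the log2 scale (95% interval −2.08 to 4.10), an interval too wide to tell large effects from none.

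**Figure D3:**
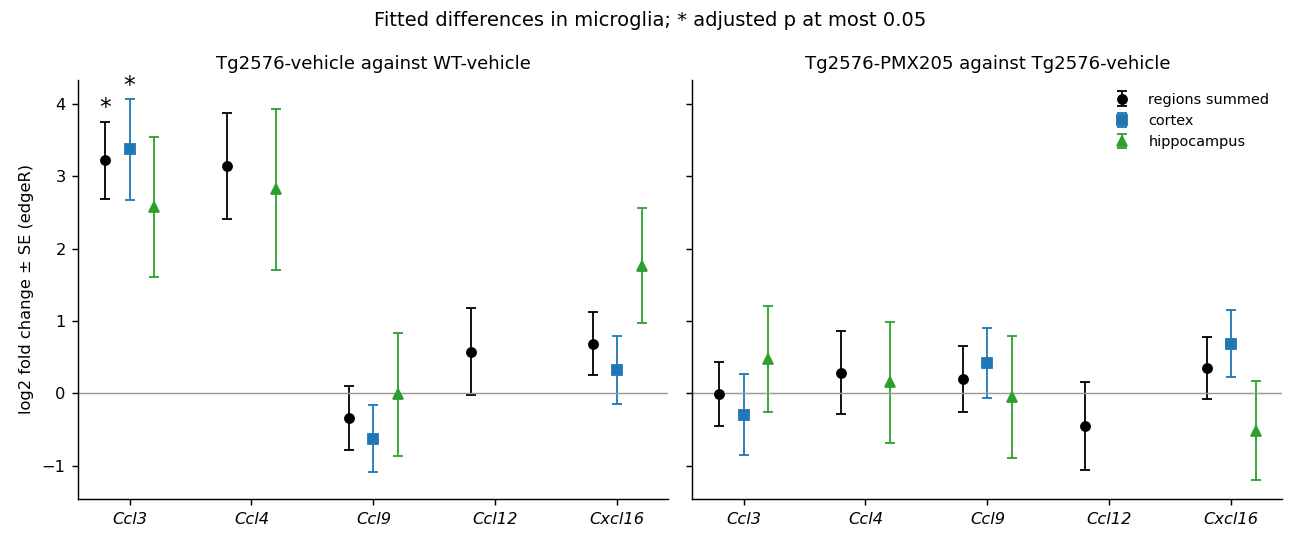
Log2 fold changes of the tested chemokines in microglia for genotype and for PMX205 in Tg2576 mice, with regions summed and in each region (edgeR, bars are standard errors), and a star where the adjusted p was at most 0.05. Ccl3 stood at 3.22 for genotype with regions summed and at −0.01 for PMX205 in Tg2576 mice.

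Within Tg2576 mice, Ccl3 was higher in cells of the DAM type than in other microglia, while the calls of Ccl4 and Cxcl16 depended on the test. A microglial cell was put in the DAM gate when it carried at least 2 of Cst7, Lpl, Itgax, Clec7a, Csf1, Axl and Spp1 after thinning to 500 UMIs, and no chemokine entered the gate. Gated cells made up 3.48 to 18.2% of microglia in the 8 Tg2576 mice, and 1 cell each was found in WT-vehicle 1 and WT-PMX205 1. Over the 7 Tg2576 mice with at least 5 gated cells, 155 gated and 1436 other microglia were compared, with median depths of 1160 and 910 UMIs.

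Ccl3 was 423, 916, 600.4 and 90.4 CPM in gated cells of Tg2576-vehicle mice 1 to 4, and 134, 135, 105 and 130 CPM in their other microglia. In Tg2576-PMX205 mice 1 to 3 it was 616, 520.2 and 2026 CPM in gated cells against 29.2, 109.6 and 142 CPM in the rest. Gated cells were thus higher in 6 of 7 mice, the exception being Tg2576-vehicle 4. The means were 742 ± 618 and 112 ± 39.1 CPM (SD, n = 7), and an exact two-sided sign-flip test gave p = 0.0312, where 0.0156 is the smallest possible. This p is unadjusted and would not pass an adjustment over the 8 members compared. By the same test 7.94% of the 17400 genes with a UMI in these cells passed and 0.569% were higher in gated cells, and of the 6107 genes with at least 50 UMIs 13% passed and 1.62% were higher. It was also lost (exact p = 0.0625) without any one of 6 of the 7 mice, and passed without Tg2576-vehicle 4. In the edgeR fit over 6107 genes with the mouse as a block, 2 of the 5 members tested were called, Ccl3 (log2 difference 2.11 ± 0.40, adjusted p = 9.38e-05) and Ccl4 (2.05 ± 0.53, adjusted p = 0.0252), while 1.15% of all genes tested were called and 0.295% were higher in gated cells. This fit was the second of 3 made after the data were seen. In the first, with filterByExpr by cell class (4.28% of 1587 genes called), Ccl3 (2.51 ± 0.34, adjusted p = 2.43e-11) and Cxcl16 (1.79 ± 0.43, adjusted p = 0.00211) were called and Ccl4 was not tested. In the third, with filterByExpr by design (1.35% of 3556 genes called), Ccl3 (2.28 ± 0.37), Ccl4 (2.22 ± 0.52) and Cxcl16 (1.59 ± 0.45) were called, with edgeR adjusted p from 4.88e-07 to 0.0393. Ccl3 passed in all 3 fits, which use the same counts and mice, differ only in the gene filter and so do not back one another. With at least 3 gate genes asked of a cell only 2 mice had enough gated cells, Ccl3 stood at 529 ± 67.9 against 156 ± 5.39 CPM, higher in both, and no p below 0.5 was possible in the exact test.

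Cxcl16 was also higher in gated cells in 6 of 7 mice, at 327 ± 307 against 86.9 ± 51.2 CPM, with p = 0.0312 in the exact test and a log2 difference of 1.43 ± 0.47 that did not pass in the edgeR fit with at least 50 UMIs (adjusted p = 0.111). Ccl4 was 101, 0, 218 and 90.4 CPM in gated cells of Tg2576-vehicle mice 1 to 4 and 217, 294 and 1134 CPM in those of Tg2576-PMX205 mice 1 to 3. It averaged 294 ± 384 against 51.99 ± 34.3 CPM, higher in 6 of 7 mice (exact test, p = 0.0625). Without Tg2576-PMX205 3, which had 11 gated cells, the mean difference fell from 242 to 106 CPM for Ccl4 and from 239.8 to 135 CPM for Cxcl16. Ccl9 went the other way without passing, 88.1 ± 70.9 against 112 ± 59.8 CPM (exact test, p = 0.547), and so did Ccl12, 29.2 ± 40.4 against 66.1 ± 51.0 CPM (exact test, p = 0.125). No gated cell of these mice held Cxcl13. The larger Ccl3 level of Tg2576 microglia was not only in gated cells: among microglia outside the gate the genotype difference was 2.86 ± 0.58 on the log2 scale (edgeR adjusted p = 0.0340). In that fit 3 of 5119 genes were called, and Ccl4 was not (edgeR adjusted p = 0.857). The gate was set on thinned cells, so cells of the DAM type with too few gate genes counted stayed outside it. Whether microglia without the DAM state raise Ccl3 therefore cannot be told from this fit.

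**Figure D4:**
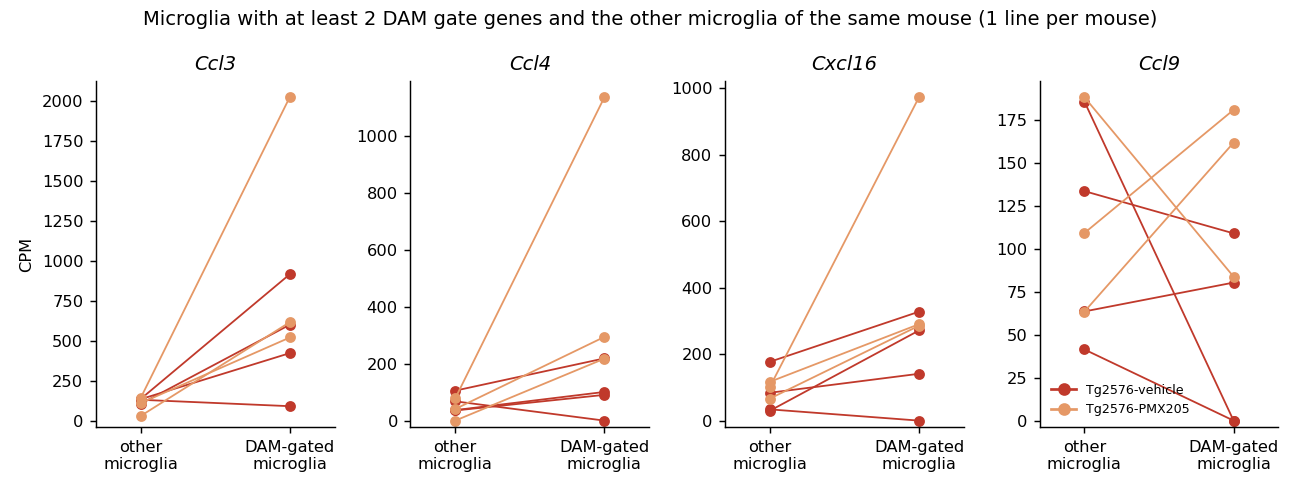
Levels (CPM) of 4 chemokines in DAM-gated and other microglia of the 7 Tg2576 mice with at least 5 gated cells; a line joins both values of a mouse. Ccl3, Ccl4 and Cxcl16 were higher in gated cells in 6 of 7 mice, and Ccl9 in 3 of 7.

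Several chemokines were seldom seen in the same cell. Of 2533 microglia 1900 carried no member, 500 carried 1, 102 carried 2, 26 carried 3 and 5 carried 4. Deeper cells carried more, with median depths of 831, 1102.5, 1367.5, 2641.5 and 3159 UMIs in that order. After thinning to 500 UMIs, microglia with at least 2 members made up 0.845, 0.0617, 2.13, 0.217 and 0.109% in WT-vehicle mice 1 to 5 and 1.94, 1.35, 1.74 and 1.11% in Tg2576-vehicle mice 1 to 4. The groups overlapped through WT-vehicle 3. Means were 0.672 ± 0.873% (SD, n = 5) and 1.53 ± 0.375% (n = 4), a difference of 0.861 percentage points, which was 2.36 without thinning and 0.285 when Ccl4 was not counted among the members.

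In Tg2576-PMX205 mice 1 to 4 the share was 1.18, 2.52, 3.797 and 1.22%, with a mean of 2.181 ± 1.24% (n = 4) that lay 0.647 above the vehicle mean with overlap. That difference was 0.109 without Tg2576-PMX205 3, 0.982 without Tg2576-PMX205 1 and −0.061 in cortex alone. The 2 WT-PMX205 mice had 0.0926 and 0%, a mean 0.626 below that of WT-vehicle mice, or 0.262 below without WT-vehicle 3. Astrocytes with at least 2 members, the background of the measure, made up 0.00909% over 12 mice, against 1.32% of the microglia of the same mice. With at least 3 members the share was 0.371 ± 0.246% in Tg2576-PMX205 (0.163 to 0.728%) and 0.0460 ± 0.0593% in Tg2576-vehicle mice (0 to 0.124%). Few cells stand behind it: before thinning 8 Tg2576-vehicle microglia carried 3 members, and in Tg2576-PMX205 mice 17 carried 3 and 5 carried 4. No p is given for these shares, since the set of genes was chosen with results of these data known. The exact permutation test planned for the share with at least 2 members did not pass in any of the 3 comparisons.

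**Figure D5:**
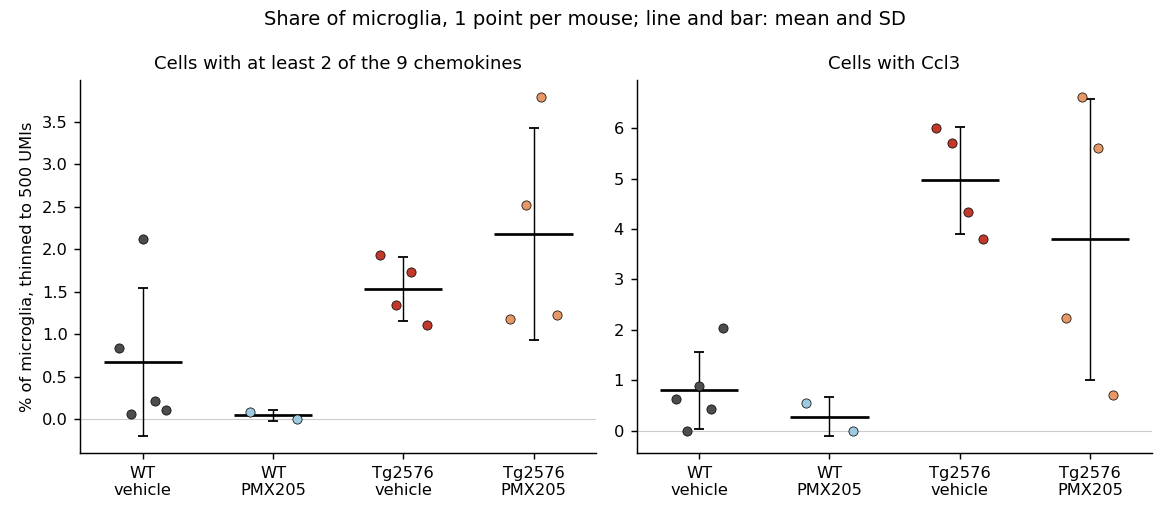
Percent of microglia with at least 2 of the chemokines (left) and with Ccl3 (right) after each cell was thinned to 500 UMIs; a point is a mouse, a horizontal line the group mean and a bar the SD. With at least 2 chemokines, Tg2576-vehicle mice lay between 1.11 and 1.94% and WT-vehicle mice between 0.0617 and 2.13%.

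Ccl3 and Ccl4 were carried together by 39 microglia. Ccl4 was present in 22.8% of the 171 Ccl3 carriers and in 1.91% of the other microglia. Carriers were deeper (median 1245 against 876 UMIs), and thinning left 14.1 against 1.33%, higher in 6 mice and lower in 2. Cxcl16 was found in 23.4% of Ccl3 carriers and 6.05% of the rest (11.1 against 3.47% thinned, higher in 5 mice and lower in 3). Ccl9 did not follow, at 9.94 against 8.34% (3.77 against 4.61% thinned). These shares describe cells and carry no test.

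The genes most like each member were ranked by the log2 ratio of CPM between carrying and other microglia, averaged over mice, among 7686 genes. For Ccl4, Ccl3 came first (2.71 ± 0.34 SE, higher in 5 of 5 mice), before Spp1 (2.22 ± 0.66, 5 of 5), a secreted DAM gene, and Xpa (1.86 ± 1.62, 3 of 5). For Ccl3 the first were Hras (1.77 ± 0.42, 7 of 8 mice), Ctse (1.55 ± 0.39) and Ptgfrn (1.51 ± 0.74), followed by Ccl4 (1.47 ± 0.84). For Cxcl16 they were Lpl (1.29 ± 0.83, higher in 8 of 12 mice), Igf1 (0.99 ± 0.58, 5 of 12) and Sulf2 (0.92 ± 0.65, 5 of 12). For Ccl9 the first were Nmnat1 (0.90 ± 0.69, 7 of 13 mice), Snd1 (0.88 ± 0.55, 10 of 13) and 4732471J01Rik (0.87 ± 0.56, 7 of 13). For Ccl12 they were Csmd1 (1.47 ± 0.40, 6 of 7), Arhgap19 (1.45 ± 0.68, 5 of 7) and Epm2a (1.38 ± 0.51, 6 of 7). Ratios near their errors rest on few UMIs.

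Rare cells held most UMIs of Ccl5 and Cxcl13. Of 203 Ccl5 UMIs, 155 (76.4%) lay in 3 barcodes of the hippocampus. One with 48 UMIs, in Tg2576-vehicle 2, carried the T and NK cell genes Nkg7, Ms4a4b and Klrd1. The other barcodes, with 81 and 26 UMIs, came from Tg2576-PMX205 3 and carried 1 microglial marker each and none of the T or NK list. Microglia held 31 Ccl5 UMIs in 21 cells. Of 35 Cxcl13 UMIs, 26 (74.3%) lay in 3 hippocampal microglia of Tg2576-PMX205 1, with 15, 7 and 4 UMIs and 8 to 11 microglial markers each. The Cxcl13 level of Tg2576-PMX205 mice therefore follows 3 cells of 1 animal. The 3 barcodes rich in Ccl5 were not among the microglia and do not enter the microglial levels of Ccl5.

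Other genes of the chemokine and activation pathways were counted by list in the genotype comparison, with regions summed. Of 7 DAM gate genes 7 were tested and 4 rose, Cst7 (log2 fold change 5.02 ± 0.47), Itgax (4.71 ± 0.90), Lpl (3.47 ± 0.67) and Clec7a (3.03 ± 0.56), with a list median of 3.29 against −0.01 for all genes. Of 23 chemokine receptors 3 could be tested and 0 were called by edgeR. Cx3cr1, the receptor of fractalkine, stood at −0.22 ± 0.23 and Ccr1 at 0.50 ± 0.49. Of 26 other chemokine ligands Cxcl14 was the only 1 tested (−0.86 ± 0.51).

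Of 18 NF-kB response genes 6 were tested and 0 called (median 0.12), among them Nfkb1 (0.24 ± 0.33), Cd83 (0.12 ± 0.38) and Rel (0.29 ± 0.42). Of 20 immediate early genes 6 were tested and 0 called (median −0.22), and their summed level was 817 to 1252 CPM in WT-vehicle and 821 to 1190 CPM in Tg2576-vehicle mice, with overlap. Of 17 interferon response genes 3 were tested and 0 called, with Ifitm3 at 1.76 ± 0.66 (edgeR adjusted p = 0.997). Of 12 homeostatic genes 9 were tested and 0 called. Markers of perivascular macrophages summed to 15.3 to 95.3 CPM in WT-vehicle and 31.0 to 146 CPM in Tg2576-vehicle microglia. Markers of endothelium summed to 53.5 to 178 CPM and 79.1 to 317 CPM, those of mural cells to 64.2 to 742 CPM and 124 to 656 CPM, and those of astrocytes to 1450 to 5750 CPM and 1437 to 3532 CPM. Of 10 endothelial markers 3 were tested and 0 called by edgeR, Flt1 (2.30 ± 0.90), Itm2a (2.17 ± 1.11) and Pecam1 (−0.16 ± 0.45), with a median of 2.17 (adjusted p = 0.997 for each). The part of these cell types in the Ccl3 difference was not tested. With PMX205 in Tg2576 mice, 0 genes of any of these lists were called by edgeR.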

How the data were processed

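Single-cell libraries (SureCell, 3′ UMIs) of 16 mice and 2 regions were analysed. The deposited values are UMI counts per gene and barcode, not normalized. The authors made them with kb_python (kallisto bustools) on mm10 with GENCODE M21 annotation, and the submitters' notes name bcl2fastq 2.18.0.12 and Seurat. The files hold barcodes of at least 300 UMIs. The top 6% of Scrublet scores of each library (scanpy 1.11.5) were left out as doublets. A cell received a class when at least 3 markers were present and at least 70% of its marker UMIs came from 1 list.

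UMIs of microglia were summed per mouse (at least 20 cells) and tested with edgeR 4.0.16 (filterByExpr, TMM, quasi-likelihood, R 4.3.3), adjusting over all genes tested with 0.05 as the threshold. DESeq2 1.42.0 was an alternative. All 4 groups shared 1 fit. Hippocampus and cortex come from the same animal, so the mouse was a block there. Differences between cell classes were tested by exact sign flips over mice (unadjusted) and, added after the data were seen, by edgeR over all genes with at least 50 UMIs. That filter replaced filterByExpr by class, under which most members were not tested, and filterByExpr by design was run last; all 3 are given. The design had named an adjustment of the sign-flip p-values over the members and permutation tests of the shares. Both were computed and then left out, since the members were not chosen independently of the data; under that adjustment no member passed for DAM-gated cells. Thinning to 500 UMIs was averaged over 20 draws. CPM is per 1000000 UMIs of the same cells. Intervals of pooled counts cover counting error only. The edgeR scripts were tested on simulated data. Other steps ran in Python 3.11.15 with pandas 2.3.3, NumPy 2.4.6, SciPy 1.17.1 and, for plots, matplotlib 3.10.9.

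The members and gene lists were chosen with earlier results of these data known. Named genes are the members, list genes past the threshold or, where none passed, up to 3 of the highest level, and the 3 genes most like each member carried by at least 50 microglia. Ccl4 was also named among the genes most like Ccl3 because it is a member. Each mouse has its own title; most titles carry number stems that recur across groups, whose meaning the labels do not state, and they were not used. The value of 1 tested receptor and 1 coding window are not reported here.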

Additional observations from a re-analysis of the deposited data

Results flagged for a closer look

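A single mouse stood apart from its group in 4 of 27 sets of values tested with Dixon's criterion. Chance passes it in about 1 of 20 groups of continuous values, a rate that does not hold for sparse counts. Ccl12 was 167 CPM (30 UMIs) in the microglia of Tg2576-vehicle 4, against 31.0 to 40.2 CPM in the other Tg2576-vehicle mice. Cxcl13 was 158 CPM (26 UMIs) in Tg2576-PMX205 1, against 0 to 8.37 CPM in the other Tg2576-PMX205 mice. It was 2.72 CPM in WT-vehicle 1 and 2.87 CPM in Tg2576-vehicle 1, each from 1 UMI in a group otherwise at 0, which any lone UMI would pass. Outside the microglial comparisons, 1 unnamed barcode of the hippocampus of Tg2576-PMX205 3 held 81 Ccl5 UMIs among its 2292 UMIs. Ccl3 reached 106 CPM in the mural cells of Tg2576 mice, from 18 UMIs, while WT mural cells had none.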

How the results depend on the processing

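Of 1009 values of single members under the alternatives, 974 kept their direction or stayed uncalled on the same side of the threshold, 28 lost a call, 7 gained one and 0 reversed; 51 uncalled values changed sign. The genotype call of Ccl3 with regions summed passed in 26 of 26 alternatives, with log2 fold changes from 2.86 to 4.89. The number of members called for genotype with regions summed went from 1 to 2 with all genes of at least 1 UMI and was 1 to 2 when a mouse was left out. In cortex it went from 1 to 0 without the mice with contradicting strain labels, at a minimum of 1000 UMIs and with Leiden clusters, and was 0 to 1 when a mouse was left out. For DAM-gated cells, the exact test's unadjusted calls (Ccl3 and Cxcl16) went from 2 to 1 on the log2(CPM + 10) scale and to 0 with at least 3 gate genes, where 2 mice remained and no call was possible, and was 0 to 2 when a mouse was left out. The genotype difference in the share with at least 2 members was 2.36 without thinning and 2.47 with cells of at least 1000 UMIs thinned to 1000, and for PMX205 in Tg2576 mice it was 2.56, 3.39 and, in hippocampus alone, 1.98, against −0.061 in cortex alone, 0.223 with merged barcodes, 1.12 with barcodes found in 1 library only, 1.36 at a microglial marker share of at least 90% and 0.109 to 0.982 when a mouse was left out (lowest without Tg2576-PMX205 3). The genotype difference was 0.285 without Ccl4 among the members. Apart from these settings the cause was not tested.

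Over all genes, edgeR called 7 for genotype with regions summed (2 to 17 under the alternatives), 3 in cortex (0 to 11), 5 in hippocampus (1 to 16) and 7 between regions (0 to 15). For PMX205 in Tg2576 mice it called 2 in hippocampus (0 to 14), 0 in cortex (0 to 3) and 0 with regions summed (0 to 2). For PMX205 in WT mice it called 0 (0 to 3) and for the difference of treatment effects 0 (0 to 2). Without the replicate block that pairs the regions, 0 members were called and Ccl3 stood at 0.12, so the pairing changed no call of a member. The share for PMX205 in WT mice could not be computed in hippocampus alone, with at least 50 microglia or without either treated mouse.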
